A study of Mus musculus with 8 samples.

Results

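10 genes that shape the actin skeleton of white blood cells were followed in fat of mice with and without aromatase deletion. They are Capg, Gas7, Lcp1, Coro1a, Arpc1b, Lsp1, Was, Hcls1, Fmnl1 and Evl, 10 of the 34866 genes in the deposited table. Capg and Gas7 were selected on their rise in the knockout libraries, in the same contrast that is described here, so their difference is a description and no evidence. The other 8 were taken for their function, as actin-binding genes enriched in leukocytes, though with earlier results of these data known. RNA came from epididymal white adipose tissue, the fat depot next to the epididymis, of male mice. In 4 control samples both copies of the aromatase gene Cyp19a1 carried loxP sites (Aromatase flox/flox), and in 4 knockout samples the same floxed gene was combined with the aP2-Cre transgene (aP2-Cre;Aromatase flox/flox). Ages are not given in the sources used here.

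The aP2 promoter belongs to Fabp4, which is active in adipocytes and is also known to be active in macrophages, so Cre made from it is not limited to fat cells by design. Samples with the transgene and an intact aromatase gene were not analysed here, and the transgene and the deletion cannot be told apart. Cyp19a1 itself was at 0.418 to 2.25 CPM (a gene's counts relative to the library size, with sizes scaled by the trimmed mean of M values) in controls and 0 to 1.61 CPM in knockouts. That is a handful of reads, and the deletion could not be checked from so few (two-sided exact permutation p = 0.629, n = 4 per genotype). Library totals ran from 1538427 to 3053565 estimated counts, and 3 counts, the limit that a count of 0 allows, equal 0.984 to 1.92 CPM. All 10 members had at least 9 counts in every library and passed the low-count filter.

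Leukocytes crawl, engulf and hold on to other cells by building and dismantling actin filaments under the plasma membrane. The Arp2/3 complex starts branched filaments once a protein of the WASP family has switched it on, formins and Ena/VASP proteins lengthen filaments, capping proteins end their growth, and plastins, coronins and F-BAR proteins bundle, remodel or bend membrane around them. Many of these proteins exist as a form found mainly in blood cells beside a relative found in most cells. In white fat, macrophages are a major group of leukocytes. Because whole tissue was measured, a change in the number of such cells and a change in the RNA that each cell holds cannot be told apart.

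Promoter windows were read for 8 members from RefSeq (GRCm38.p6); Gas7 and Lsp1 had no entry. Upstream stretches free of annotated exons are shown, 5′ to 3′, for Capg, Lcp1 and Arpc1b, whose libraries did not overlap between genotypes, and for Fmnl1, Was and Hcls1, whose windows held a searched motif. Capitals mark the motif match. The RefSeq start used for Capg lies inside the span that GENCODE gives the gene.
Capg, chr6:72549502-72549646, + strand: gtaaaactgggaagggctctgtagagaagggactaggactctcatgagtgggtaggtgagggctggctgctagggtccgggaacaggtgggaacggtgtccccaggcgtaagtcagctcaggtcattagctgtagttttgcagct
Lcp1, chr14:75130951-75131100, + strand: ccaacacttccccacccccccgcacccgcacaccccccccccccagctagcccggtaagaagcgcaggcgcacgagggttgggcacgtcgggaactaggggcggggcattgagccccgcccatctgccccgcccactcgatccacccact
Arpc1b, chr5:145114065-145114214, + strand: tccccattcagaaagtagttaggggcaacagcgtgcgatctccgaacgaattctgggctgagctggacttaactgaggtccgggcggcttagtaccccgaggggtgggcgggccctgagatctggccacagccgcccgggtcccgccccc
Fmnl1, chr11:103170957-103171106, + strand: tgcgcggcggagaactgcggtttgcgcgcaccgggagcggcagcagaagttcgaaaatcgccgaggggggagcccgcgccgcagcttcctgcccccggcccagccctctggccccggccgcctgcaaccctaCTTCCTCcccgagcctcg
Was, chrX:8090499-8090648, - strand: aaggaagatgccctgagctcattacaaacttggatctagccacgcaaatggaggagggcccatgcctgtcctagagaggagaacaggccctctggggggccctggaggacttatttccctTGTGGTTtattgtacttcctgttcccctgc
Hcls1, chr16:36934833-36934982, + strand: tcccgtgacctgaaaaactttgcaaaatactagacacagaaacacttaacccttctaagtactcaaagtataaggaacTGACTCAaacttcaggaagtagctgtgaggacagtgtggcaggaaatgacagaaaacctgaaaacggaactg

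The 250 bases before each start were searched on both strands for 3 motifs: GAGGAAG, a core bound by PU.1, a master factor of myeloid cells; TGTGGTT, bound by RUNX factors; and TGANTCA, bound by AP-1. Each window with a match held a single motif, so no matches overlapped. In Fmnl1 the PU.1 core lay on the strand opposite to the one printed, and in Was the RUNX core lay on the printed strand. The AP-1 core in Hcls1 reads as a match on both strands. The 8 members have 11 windows, and each motif was found in 1 of the 11, while 10.6%, 4.40% and 6.75% of 32851 promoter windows held them in the same order. No match lay in the windows of Capg, Lcp1, Arpc1b, Coro1a or Evl, which says only that these letters are not there.

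All 10 members had a positive log2 fold change (knockout minus control), and their median was 0.34 with a range from 0.02 to 0.88. Over all 12480 genes tested the median was 0.00 and 49.7% were above 0. By edgeR's quasi-likelihood test 2 of the 10, Capg and Gas7, passed the threshold of 0.05 on the adjusted p, both higher. That count is fixed by how they were chosen, and the background was 0.168% of all genes in either direction and 0.12% in the upward direction. Of the 8 other members none passed, while 3 of the 8 (Lcp1, Arpc1b and Evl) were higher at an unadjusted p under 0.05, against 3.52% of all genes. Every knockout library lay above every control library for Capg and Gas7, as their choice favours, and for 2 of the 8 others (Lcp1 and Arpc1b), against 2.52% of all genes. Without Capg and Gas7 the median of the remaining 8 was 0.24. These 8 were listed with earlier results of the data known, so their shares are a description too.

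**Figure D1:**
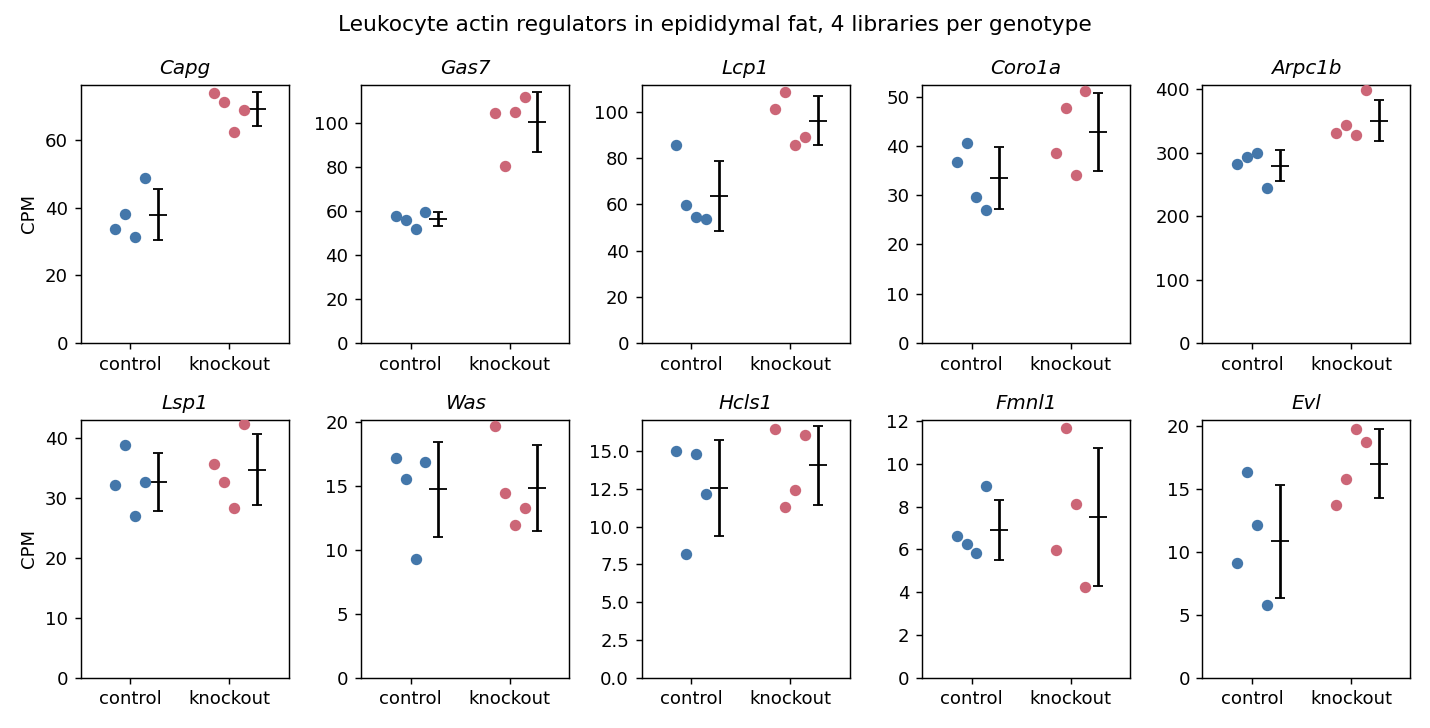
Level of each member in CPM on a linear axis from 0, with 1 point per library, control in blue and knockout in red; the black mark and bar beside the points give the mean and SD (n = 4). The 4 knockout points of Capg, Gas7, Lcp1 and Arpc1b sit above all control points, for Lcp1 by a margin too small to see, while those of the other 6 members overlap the control points.

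Capg (chr6:72544391-72562983) encodes a gelsolin-family protein that caps the growing end of actin filaments and is abundant in macrophages. It stood at 33.9, 38.1, 31.4 and 48.7 CPM in control replicates 1 to 4 and at 74.2, 71.4, 62.4 and 68.9 CPM in knockout replicates 1 to 4. The lowest knockout library was thus above the highest control library, replicate 4. The means were 38.0 ± 7.65 and 69.2 ± 5.01 CPM (SD, n = 4), and the log2 fold change was 0.88 (standard error 0.149).

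Gas7 (chr11:67455437-67688990) encodes an F-BAR protein that binds actin and membrane and takes part in the phagocytic cup. Its control libraries were tightly grouped at 58.0, 56.1, 52.0 and 59.5 CPM, and its knockout libraries lay at 105, 80.7, 105 and 112 CPM. Knockout replicate 2 was the lowest of these and still above all controls. The means were 56.4 ± 3.23 and 100.7 ± 13.7 CPM (SD, n = 4), and the log2 fold change was 0.84 (standard error 0.128). Capg was past the threshold only in the fits without control replicate 4 and without knockout replicate 3 when 1 library was left out, and Gas7 only in those and the fit without knockout replicate 2; their log2 fold changes stayed within 0.801 to 1.003 and 0.78 to 0.928.

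Lcp1 (chr14:75131101-75230842) encodes L-plastin, the leukocyte form of the filament-bundling plastins. Control replicate 1 stood high at 85.8 CPM beside 59.7, 54.7 and 53.5 CPM in the others, and the knockout libraries lay at 101, 109, 85.9 and 89.3 CPM. The genotypes were apart by no more than the rounding of the lowest knockout and the highest control value. The log2 fold change was 0.59 (standard error 0.157; edgeR adjusted p = 0.311), so Lcp1 did not pass. Without the low-count filter its adjusted p was 0.0453, at a log2 fold change of 0.59.

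Arpc1b (chr5:145114215-145130705), the Arp2/3 subunit that prevails in blood cells, was the most counted member, with 381 to 1218 estimated counts. Its control libraries held 282, 293, 299 and 244 CPM and its knockout libraries 331, 344, 328 and 399 CPM. The groups did not overlap, and knockout replicate 4 was furthest from the controls. The log2 fold change was 0.33 (standard error 0.114; edgeR adjusted p = 0.587).

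Was (chrX:8081453-8090498) encodes WASP, which activates Arp2/3 in blood cells and is lost in Wiskott-Aldrich syndrome, and Hcls1 (chr16:36934983-36963212) encodes HS1, the cortactin of blood cells. Was held 17.2, 15.6, 9.31 and 16.9 CPM in controls and 19.7, 14.5, 11.98 and 13.3 CPM in knockouts. Hcls1 held 15.02, 8.20, 14.8 and 12.2 CPM against 16.5, 11.3, 12.4 and 16.1 CPM. For both genes the groups overlapped. The log2 fold changes were 0.02 ± 0.262 for Was and 0.16 ± 0.266 for Hcls1 (standard error; edgeR adjusted p = 0.998 and 0.96). Their 95% intervals were -0.54 to 0.58 and -0.41 to 0.72.

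Coro1a (chr7:126699773-126707787) encodes coronin-1A, a filament-binding protein of leukocytes known from T cells and phagosomes. It lay at 36.7, 40.6, 29.6 and 26.9 CPM in controls and 38.5, 47.6, 34.1 and 51.2 CPM in knockouts, with knockout replicates 1 and 3 inside the control range. The log2 fold change was 0.35 (standard error 0.179; edgeR adjusted p = 0.816). Lsp1 (chr7:142460809-142494867), an actin-binding protein of leukocytes linked to their migration, lay at 32.1, 38.9, 26.9 and 32.7 CPM against 35.7, 32.7, 28.3 and 42.3 CPM. The groups overlapped, and the log2 fold change was 0.09 (standard error 0.173; edgeR adjusted p = 0.968).

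Among the genes for filament elongation, the formin Fmnl1 (chr11:103171107-103198901) had 13 to 29 counts per library. It stood at 6.64, 6.28, 5.83 and 8.97 CPM in controls and 5.95, 11.7, 8.15 and 4.26 CPM in knockouts. The knockout libraries held both the highest and the lowest value, and the log2 fold change was 0.13 (standard error 0.376; edgeR adjusted p = 0.982). Evl (chr12:108554720-108688516), an Ena/VASP protein listed here as enriched in leukocytes, stood at 9.08, 16.3, 12.1 and 5.77 CPM against 13.7, 15.7, 19.8 and 18.7 CPM. Only control replicate 2 reached into the knockout range. The log2 fold change was 0.63 (standard error 0.293; edgeR adjusted p = 0.775), larger than that of Lcp1 but with a wider error.

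Spread within a genotype differed among the members. The coefficient of variation over the 4 control libraries was lowest for Gas7 at 5.73% and highest for Evl at 41.5%, and over the 4 knockout libraries it was lowest for Capg at 7.24% and highest for Fmnl1 at 42.7%. Coro1a and Arpc1b had the most similar profiles over the 8 libraries, with a root mean square difference of 0.17 between log2 CPM values centred on each gene's mean, followed by Capg and Gas7 at 0.208. Fmnl1 and Evl were least alike, at 0.705. Among genes outside the 10, the nearest profiles to Capg were those of Enpp1 (0.132), Gm48269 (0.166), Ttc27 (0.169), Mical2 (0.188) and Apobec1 (0.189). Nearest to Gas7 were Cybb (0.12), Mical2 (0.123), Lyz2 (0.127), Ccnb1 (0.164) and S1pr2 (0.178). Cybb encodes the membrane subunit of the phagocyte oxidase, Lyz2 a lysozyme of myeloid cells, and Mical2 an enzyme that oxidises actin. Mical2 was at 15.3 ± 1.92 CPM in controls and 27.5 ± 3.8 CPM in knockouts (SD, n = 4), or 0.84 in log2 fold change (edgeR adjusted p = 0.196). These are distances among 8 libraries that share a genotype contrast, given as a description.

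Related actin genes were taken from 5 lists chosen by function, likewise with earlier results known. The lists hold 95 different genes outside the 10, 88 of them tested. None passed the same threshold with edgeR in either direction, and DESeq2 called none either. Among the other leukocyte actin genes, 17 of 21 tested had a positive log2 fold change, the median was 0.28, and 6 were higher and 1 lower at an unadjusted p under 0.05, where 3.52% of all genes were higher and 2.87% lower. Plek, which encodes pleckstrin, a kinase substrate of platelets and leukocytes, held 6.78, 4.603, 6.73 and 6.72 CPM in controls and 9.03, 15.3, 14.7 and 14.97 CPM in knockouts (log2 fold change 1.16 ± 0.298, standard error; edgeR adjusted p = 0.274). The class I myosin gene Myo1f went from 6.08 ± 2.23 to 13.4 ± 1.39 CPM and Dock2, an exchange factor for Rac in leukocytes, from 14.7 ± 3.47 to 24.9 ± 3.22 CPM (SD, n = 4; log2 fold changes 1.09 and 0.74, edgeR adjusted p = 0.406 and 0.428). Both were apart between the genotypes, as were Plek, Cotl1 and Myo1g, of which the last 2 are named after their values were seen. In these 5 of 21 tested, every knockout library lay above every control library, against 2.52% of all genes. The gene at the lower end was Twf2, a twinfilin, likewise named afterwards, with a log2 fold change of -0.45 (edgeR adjusted p = 0.701).

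The 8 Arp2/3 subunits other than Arpc1b had a median of 0.10 and a range from -0.12 to 0.24; Arpc2 was at the top (edgeR adjusted p = 0.754), followed in order of p by Actr2 and Arpc5, with log2 fold changes of 0.18 and 0.15. The 12 tested WASP and WAVE genes had a median of 0.11, with log2 fold changes of 0.32 for the WAVE subunit Abi2, 0.19 for the GTPase Rac1 and 0.62 for Wasf1. In the 23 general actin genes the median was 0.14. Its smallest p values belonged to Actb, beta-actin (6165 ± 454 against 7911 ± 801 CPM, SD, n = 4; 0.36 on the log2 scale with an edgeR adjusted p of 0.51), the integrin linker Tln1 (0.32) and the tropomyosin Tpm3 (0.30). The 26 tested family relatives of the members had a median of 0.02 and 15 of them were positive. Among them, Coro1c had a log2 fold change of 0.20. All knockout libraries lay above all controls for 1 of 8 Arp2/3, 2 of 12 WASP and WAVE and 2 of 23 general actin genes. For the family relatives it was 0 of 26, where 2.52% of all genes were so placed.

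**Figure D2:**
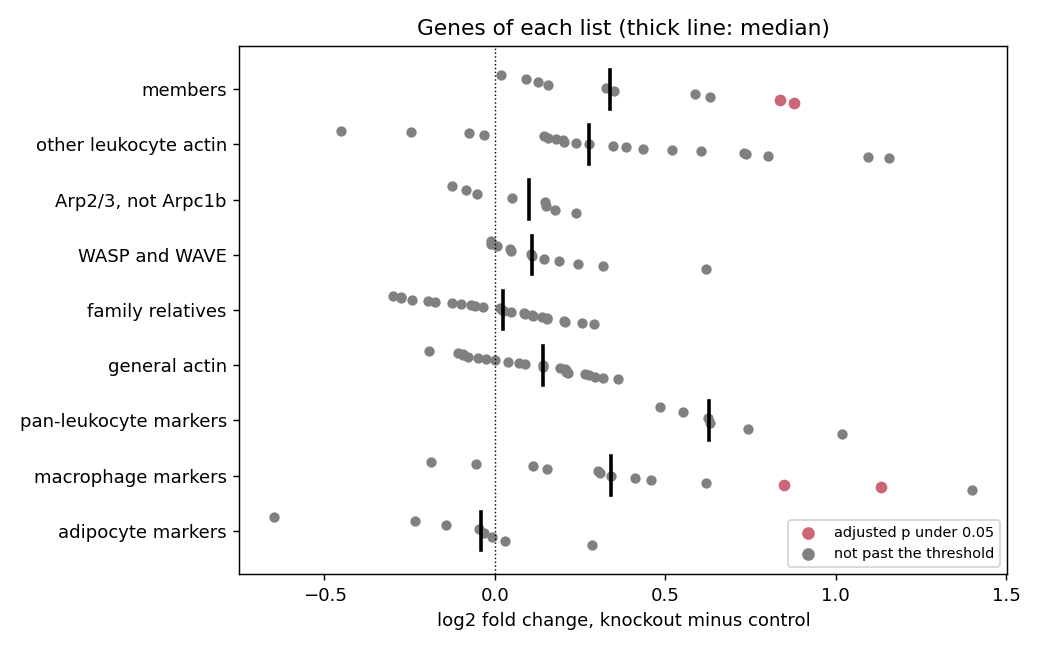
Log2 fold change (x axis, knockout minus control) of every tested gene in each list (rows); red points passed an adjusted p of 0.05, grey points did not, and the thick line is the median. The median is 0.34 for the members (0.24 without Capg and Gas7, which were chosen for their rise), 0.28 for the other leukocyte actin genes, 0.02 for the family relatives, 0.34 for macrophage markers and 0.63 for pan-leukocyte markers.

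Members were then set against a listed relative of the same family in each library, as a log2 ratio of CPM with 0.5 CPM added to both. Arpc1b over Arpc1a was 1.5, 1.57, 1.51 and 1.43 in the control and 1.80, 1.77, 1.95 and 2.29 in the knockout libraries. All knockout ratios were above all control ratios, a difference of 0.45 (two-sided exact permutation p = 0.0286, the smallest that 4 against 4 can give; adjusted p = 0.2 over 7 pairs). Hcls1 over cortactin, Cttn, differed by 0.48 (exact p = 0.0857) and Evl over Vasp by 0.75 (exact p = 0.0571). For Lcp1 over Pls3 the difference was 0.80 (exact p = 0.114) and for Coro1a over Coro1b 0.24 (exact p = 0.257). Was over Wasl (-0.09, exact p = 0.743) and Fmnl1 over Fmnl2 (0.09, exact p = 0.886) were nearest to 0. None of the 7 pairs passed after adjustment, with adjusted p from 0.2 to 0.886. A pair alone at the smallest exact p could not have passed over 7 pairs, so this does not decide for Arpc1b. Capg over gelsolin, Gsn, went from -7.16 ± 0.29 to -5.99 ± 0.23 (SD, n = 4), given with no test because Capg was chosen by its rise. For Gas7 no ratio is given, since its relative Pstpip2 had at most 3 counts in any library.

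The relatives themselves did not pass. Cttn stood at 85.9, 82.0, 83.9 and 97.4 CPM in controls and 79.2, 60.9, 72.9 and 70.5 CPM in knockouts, without overlap (log2 fold change -0.30 ± 0.121, standard error; edgeR adjusted p = 0.695). Gsn, which severs and caps filaments and was by far the most counted of them, went from 5423 ± 264 to 4476 ± 796 CPM (SD, n = 4), or -0.28 in log2 fold change (edgeR adjusted p = 0.803). Pls3 (-0.20), Arpc1a (-0.12), Fmnl2 (-0.07) and Vasp (-0.06) had negative, and Wasl (0.11) and Coro1b (0.11) positive log2 fold changes.

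**Figure D3:**
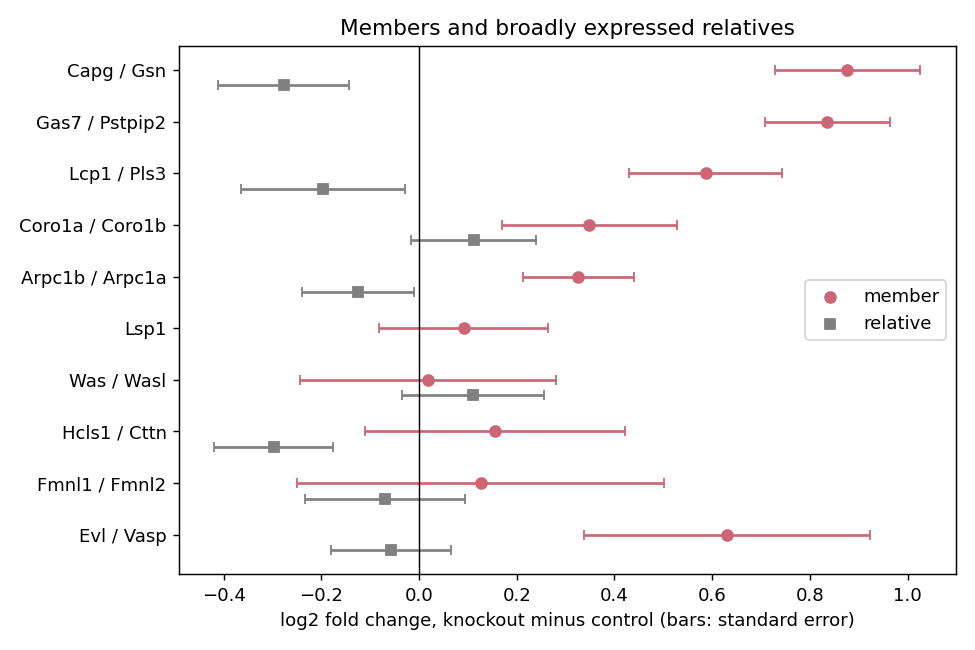
Log2 fold change with its standard error (x axis) for each member (red circles) and, below it, its listed relative (grey squares). Lsp1 has no listed relative, and Pstpip2, the relative of Gas7, was not tested. Relatives lie between -0.30 and 0.11, and only for Was is the relative's value above the member's.

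Markers of the cell types that fat can hold were summed in each library. The 14 macrophage markers summed to 973 to 1125 CPM in controls and 1382 to 1794 CPM in knockouts, without overlap. Lyz2 was the largest part, with means of 379 and 682 CPM, and the separation rests on it. Control replicate 1 summed to 1125 CPM with Lyz2 at 363, and knockout replicate 1 to 1433 CPM with Lyz2 at 696. Of 13 tested, 2 passed, Lyz2 and Cd68, against 0.12% of all genes called higher. A positive log2 fold change was seen in 11, against 49.7% of all genes. Cd163 (-0.187) and Mertk (-0.055) were negative, and Fcgr1, not tested, had means of 4.79 and 2.92 CPM. The 6 pan-leukocyte markers (Ptprc, Laptm5, Cd53, Cd52, Itgb2 and Tyrobp) summed to 162 to 245 against 314 to 337 CPM, with a median log2 fold change of 0.63 and none past the threshold. T cell markers summed to 15.7 to 21.0 and 12.3 to 23.5 CPM, and natural killer markers to at most 8.07 CPM. The 8 neutrophil markers summed to 32.9 to 36.2 and 29.1 to 45.1 CPM, and most of that was Cxcr2, with means of 27.1 and 30.6 CPM. S100a8 reached 13.4 CPM in knockout replicate 4. Camp, below the low-count filter, was lower in every knockout than in every control library, with means of 2.97 and 0.47 CPM. Ly6g and Ltf were at 0 in all 8 libraries. The B cell sum, 401 to 997 and 312 to 831 CPM, was almost wholly Ighm, while Ms4a1 held at most 6.34 CPM. Dendritic cell markers summed to 37.5 to 39.5 and 39.4 to 56.5 CPM and mast cell markers to 11.5 to 27.2 and 16.02 to 30.3 CPM. Adipocyte markers were abundant in both genotypes, at 22576 to 31782 and 21020 to 30149 CPM, endothelial markers lay at 353 to 651 and 480 to 592 CPM, and the 6 epididymis markers summed to at most 3.77 and 8.53 CPM. Of these, Crisp1, Lcn5 and Lcn8 were at 0 throughout, while Adam7 held 3.77 CPM in control replicate 2 and 8.53 CPM in knockout replicate 3. Members are set against the leukocyte, macrophage and lymphocyte sums in the next paragraphs; the part of the other markers was not tested.

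To show the members beside the leukocyte markers in the same library, each (0.5 CPM added) was divided by the summed CPM of the 6 pan-leukocyte markers; this comparison was added after the values had been seen. On that scale the log2 ratio of Capg went from -2.43 ± 0.50 to -2.21 ± 0.11 (SD, n = 4). Its control libraries lay at -2.83, -2.44, -2.73 and -1.72 and its knockout libraries at -2.07, -2.18, -2.32 and -2.28. The overlap came from control replicate 4 alone, which had both the lowest marker sum, 162 CPM, and the highest Capg of the controls, 48.7 CPM. The ratio of Gas7 went from -1.85 ± 0.29 to -1.68 ± 0.22 (SD, n = 4), with overlap between the genotypes. Lcp1 differed by -0.04 and Evl by 0.05 (exact permutation p = 0.714 and 0.914). The ratio of Lsp1 was lower in every knockout library, at -2.91, -2.41, -2.95 and -2.29 in the control and -3.12, -3.30, -3.45 and -2.98 in the knockout libraries (difference -0.57, two-sided exact permutation p = 0.0286). Its own CPM overlapped, at a log2 fold change of 0.09, while the marker sum was higher in every knockout library (314 to 337 against 162 to 245 CPM). A member whose CPM stayed level therefore has a negative difference on this scale. Was (-0.63, exact p = 0.0571), Fmnl1 (-0.62, exact p = 0.2), Hcls1 (-0.48, exact p = 0.114), Arpc1b (-0.33, exact p = 0.0571) and Coro1a (-0.30, exact p = 0.143) had negative differences. None of the 8 tested members passed after adjustment, with adjusted p from 0.152 to 0.914. A member alone at the smallest exact p, 0.0286, could not have passed over 8 tests, so this does not decide for Lsp1.

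**Figure D4:**
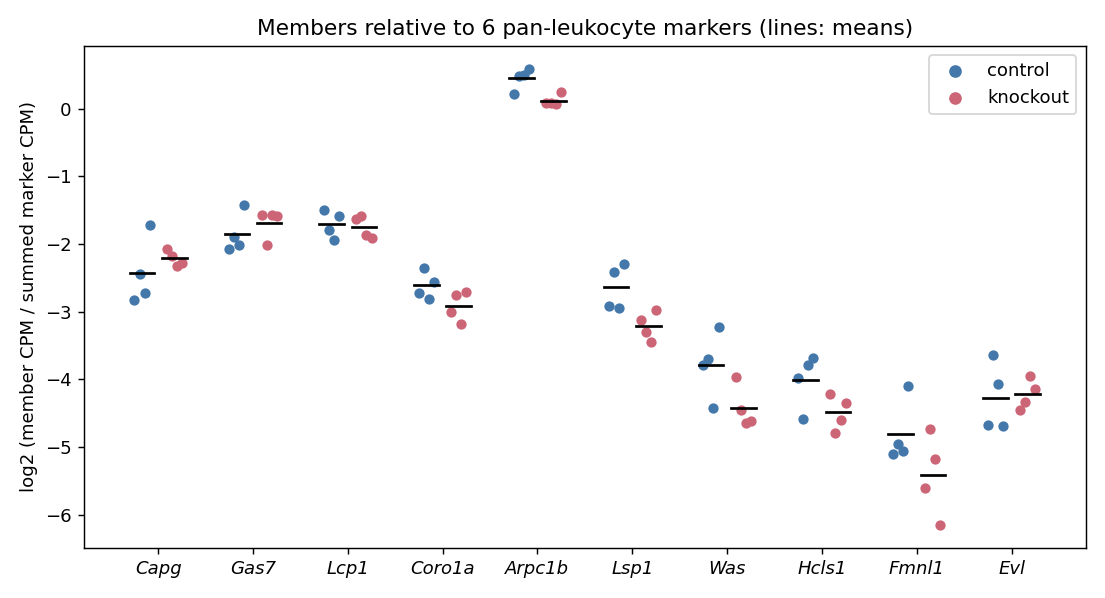
Log2 ratio of each member's CPM (0.5 CPM added) to the summed CPM of 6 pan-leukocyte markers (y axis) for each library, control in blue and knockout in red, with a black line at each mean (n = 4). Lsp1 is the only member whose ratios do not overlap between genotypes, with the knockout libraries lower, while the means of Capg, Gas7, Lcp1 and Evl differ by 0.22 or less. The marker sum itself was higher in every knockout library. For Capg the overlap comes from control replicate 4 alone.

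Within genotypes, 20 relations were examined, each between a member's log2 CPM and a log2 marker sum, after removing genotype means (8 libraries, exact permutation within genotype). The sums were those of the macrophage markers and of the T and B cell markers together. The latter was almost wholly Ighm (297 to 979 CPM), with T cell markers at 12.3 to 23.5 CPM. Its relations therefore describe Ighm and say little of T cells. Each r was also taken without the 2 libraries farthest from the median of the marker sum, keeping the genotype means of all 8. The libraries left were thus not centred again within each genotype. Arpc1b and the macrophage sum had the highest r (Pearson r = 0.89, exact permutation p = 0.0226; Spearman rho = 0.90, p = 0.0191) with r = 0.82 without the 2 libraries farthest from the median. Against the T and B cell sum Arpc1b gave r = 0.81 (exact permutation p = 0.0174; rho = 0.81, p = 0.033), with r = 0.71 without 2 libraries. Coro1a against macrophage markers gave r = 0.74 (exact permutation p = 0.0399; rho = 0.67, p = 0.102), and 0.59 without 2 libraries. Was against the T and B cell sum gave r = -0.72 (exact permutation p = 0.0521; rho = -0.81, p = 0.033), with r = -0.50 without 2 libraries. For Capg and the macrophage sum r was -0.35 (exact permutation p = 0.285; rho = -0.36, p = 0.396), but -0.89 without knockout replicates 3 and 4, so its value rests on those libraries. For Gas7 r was 0.17 (exact permutation p = 0.748; rho = -0.10, p = 0.847) and -0.22 without them. No relation passed after adjustment over the 20; the smallest adjusted p was 0.226 for r and 0.22 for rho.

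Some counts can be shared with similar sequences. Of the 31-base words in annotated transcripts, Coro1a, Lsp1, Fmnl1 and Evl shared none with another gene, and Capg 29 of 2573. Arpc1b shared 13.2% and Lcp1 8.82% of their words, mostly with Gm5637 and Gm6201, which held 0 and at most 0.353 CPM. Was shared 7.52% with many genes, at most 54 words with any of them, and Gas7 0.0884%. Several members overlap a gene on the opposite strand, such as Bola2 for Coro1a, Pdap1 for Arpc1b and Glp2r for Gas7; whether the counting used strand is not given in the sources used here, so such reads could not be separated.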

How the data were processed

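RNA from epididymal fat of 4 control and 4 knockout samples was turned into 3′-end libraries by BRB-seq, with oligo-dT priming, Tn5 tagmentation and 10 PCR cycles, and 51 bases of insert were read, per the labels' protocols. The authors deposited 1 table of estimated counts per gene, not normalized; 59.6% of the 142154 values above 0 are whole. Salmon and GRCm38 are named in the submitters' processing notes without version, and the annotation and any use of molecular identifiers are not given in the sources used here. Floors therefore cover counting error only.

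Symbols were found for 34582 of 34866 Ensembl identifiers; positions are those of GENCODE M21 (GRCm38). Estimated counts were rounded and fitted with edgeR 4.0.16 in R 4.3.3 (robust quasi-likelihood F test, genotype as the only term, TMM factors, filterByExpr, Benjamini-Hochberg over 12480 genes, threshold 0.05). Standard errors were derived from the F statistic and 95% intervals from them with the t quantile at the test's degrees of freedom. Log2 CPM used a prior count of 2. Single values were tested in scipy 1.17.1 by two-sided exact permutation, where 4 against 4 cannot go below p = 0.0286. The fit was first tested on simulated counts. Replicates of a genotype differed by 4.48 to 9.4 chi-square units per degree of freedom over genes with at least 20 counts, beyond sampling noise; the labels do not say that samples are separate animals, and p-values measure the spread between these samples.

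The members and lists were chosen with earlier results of these data known. Named are the 10 members, Cyp19a1, the listed relatives, in each of 5 related lists every gene past the threshold and the 3 with the smallest p, and for Capg and Gas7 the 5 genes with the nearest profiles; Cotl1, Myo1g, Twf2 and the cell type markers named fall outside this rule. As alternatives, DESeq2 1.42.0, a replicate block, scaling by RLE or by upper quartiles, a fit of unfiltered genes, other ratio offsets (0.1 and 2 CPM) and the omission of each library were tried.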

Additional observations from a re-analysis of the deposited data

Results flagged for a closer look

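Dixon's ratio was computed in 60 groups of 4 libraries, and in 2 of them a library stood farther from its neighbours than the 95% critical value allows; chance alone gives about 1 in 20 groups, or 3. For the log2 ratio of Fmnl1 to Fmnl2, control replicate 4 had -1.35, while the remaining controls ran from -2.27 to -2.18. That library is the smallest, and Fmnl1 had 14 counts in it. Summed endothelial markers reached 592 CPM in knockout replicate 2, while the remaining knockouts ran from 480 to 489 CPM.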

How the results depend on the processing

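The number of genes past the threshold, 21, was 58 without the low-count filter, 53 with DESeq2 and 6 with the replicate number as a block, and ranged from 4 (without control replicate 2) to 43 (without control replicate 4) when 1 library was left out. The number of members past it, 2, was 0 with the replicate block and 0 to 2 when 1 library was left out; it was 0 without control replicates 1, 2 or 3 and without knockout replicates 1 or 4, and 1 without knockout replicate 2. Among the other 8 members the count went from 0 to 1, Lcp1, without the filter. The cause of these changes was not tested. Same-numbered libraries deviated from their group means with correlations of 0.25, -0.06, -0.01 and -0.24, and not every library correlated best with its own number. Such correlations cannot settle whether same-numbered samples were paired. The members' median log2 fold change kept its sign, at 0.267 to 0.401 when 1 library was left out and 0.329 to 0.338 under the other settings. Small values changed sign without 1 library: Lsp1 (-0.023 without knockout replicate 4, up to 0.189), Was (-0.143 without control replicate 3, -0.136 without knockout replicate 1, up to 0.111), Hcls1 (-0.003 without control replicate 2, up to 0.26) and Fmnl1 (-0.169 without knockout replicate 2, up to 0.33), and the ratios of Was to Wasl (0.103 without control replicate 1, 0.042 without knockout replicate 3, down to -0.267) and Fmnl1 to Fmnl2 (-0.179 and -0.003 without knockout replicates 2 and 3, up to 0.332). None of these had passed. No gene of the 5 related lists and no adjusted family ratio or leukocyte-marker ratio passed under any alternative run for it. With 3 libraries against 4, an exact p cannot go below 0.0571, so leaving out a library could not give a passing ratio. With all 8 libraries, a ratio alone at the smallest exact p, 0.0286, could not pass after adjustment either. At 13 to 29 counts per library, the 95% interval of Fmnl1 ran from -0.68 to 0.93.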
